A study of Mus musculus with 4 samples.

Results

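Viral restriction factors are host proteins that block a step of the viral life cycle inside the infected cell. The genes described here were *Apobec3*, *Samhd1*, *Bst2*, *Ifitm1*, *Ifitm2*, *Ifitm3*, *Mx1* and *Mx2*, chosen by name as a functional group and matched by gene symbol. Of these 8 genes, 7 were matched among the 31053 genes counted, and *Mx2* was not analysed here. Pancreatic islets from C57BL/6 mice were cultured untreated or for 6 h under IL-1β (labelled IL-1B), IFN-γ (labelled IFNg) or both cytokines, dissociated, and profiled by droplet single-cell RNA sequencing. There was 1 library per condition, made from islets pooled across mice and then divided, so every difference between conditions is a difference between 2 libraries that has no replicate and no test, and intervals cover counting error only. IL-1β and IFN-γ are inflammatory cytokines that are released around islets in autoimmune diabetes. The strain sets a limit of its own, since C57BL/6 and most other inbred laboratory mice carry defective *Mx1* and *Mx2* alleles, so an *Mx1* transcript count here says nothing of a working protein.

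The 12571 barcodes in the 4 libraries gave 7471 cells after keeping those where 200 to 4000 genes were detected and mitochondrial transcripts made up no more than 12% of counts. The untreated library kept 1521 cells, IL-1β 2018, IFN-γ 2122 and the combination 1810, with 23035443, 15667390, 20618281 and 20138917 unique molecular identifiers (UMIs) in total. The libraries stood apart in depth, with a median of 15454 UMIs per cell in the untreated library, 7462.5 under IL-1β, 9615 under IFN-γ and 11123.5 under both, and the upper gene limit removed 843 cells from the untreated library against 146 to 345 from the others. Any pair of libraries shared between 1 and 4 barcodes. Cells were classed by the share of their UMIs from 1 hormone gene, or by how many marker genes of a non-endocrine cell type they held, which gave 4831 β-like, 874 α-like, 545 δ-like, 140 pancreatic polypeptide (PP)-like, 127 endothelial-like, 142 macrophage-like, 61 mesenchymal-like and 55 ductal-like cells. A further 58 acinar-like cells, with a median of 1632 UMIs, were too shallow to be described. Clustering made without the labels placed 98.1% of β-like, 94.3% of α-like, 95.2% of δ-like, 80.7% of PP-like and 81.1% of endothelial-like cells in a cluster of the same name, and at least 98.2% of the macrophage-like, mesenchymal-like and ductal-like cells. The clusters were named by the same hormone and marker limits. The mesenchymal-like cluster held 133 cells and the ductal-like cluster 83, more than the classes of those names. For the PP-like class, 128 cells had a hormone share within a factor of 1.5 of its limit. By number of markers, 79 cells lay as near the mesenchymal-like limit and 32 as near the ductal-like limit, counting cells on both sides of it. Within the β-like, α-like and δ-like classes, cells of different libraries mostly fell in different clusters. The largest β-like clusters were 96.8% untreated, 97.0% IL-1β, 97.7% IFN-γ and 96.0% combined cells, α-like clusters were 94.0% IL-1β, 76.9% IFN-γ and 65.3% combined cells, and 1 δ-like cluster was 99.3% combined cells, so the levels compared within these 3 classes come largely from different clusters. The mesenchymal-like class also had *Gfap* and *Foxd3* among its leading genes, which are better known from glia and neural crest cells.

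APOBEC3 is a cytidine deaminase that mutates retroviral DNA, and SAMHD1 empties the cell of the deoxynucleotides that reverse transcription needs. Tetherin, encoded by *Bst2*, holds budding virions at the plasma membrane, the IFITM proteins stop enveloped viruses from fusing with endosomal or surface membranes, and the MX GTPases trap viral nucleocapsids. All are classical interferon-stimulated genes: interferon receptors activate transcription factors that bind gamma-activated sites or interferon-stimulated response elements, whereas IL-1β acts mainly through NF-κB. Islet β-cells are long-lived and can be infected by enteroviruses, which is why antiviral programmes in these cells have drawn attention.

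The genes lie on 5 chromosomes of the GRCm38 assembly, with the 3 *Ifitm* genes in a cluster on chromosome 7 and the *Mx* genes as neighbours on chromosome 16. *Samhd1* (ENSMUSG00000027639) spans chr2:157097533-157135265 on the minus strand, and *Bst2* (ENSMUSG00000046718) chr8:71534255-71537456 on the minus strand. *Ifitm2* (ENSMUSG00000060591) spans chr7:140954837-140955987 (minus strand), *Ifitm1* (ENSMUSG00000025491) chr7:140967221-140969825 (plus strand) and *Ifitm3* (ENSMUSG00000025492) chr7:141009586-141010770 (minus strand). *Apobec3* (ENSMUSG00000009585) spans chr15:79891659-79915906 on the plus strand, *Mx1* (ENSMUSG00000000386) chr16:97447035-97462907 on the minus strand and *Mx2* (ENSMUSG00000023341) chr16:97535308-97560900 on the plus strand. *Ifitm2* and *Ifitm3*, and *Mx1* and *Mx2*, are close in sequence, so counts are uncertain where a read could have come from either gene.

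Promoter windows from 250 bases before to 50 bases after the transcription start (RefSeq, GRCm38.p6) were available for 6 of the genes, in 7 entries because *Apobec3* has 2 starts. They were searched on either strand for the core of the interferon-stimulated response element (GAAA, any 2 bases, GAAA), the gamma-activated site (TTCNNNGAA, which is its own reverse complement) and a κB site (GGG, any 2 bases, TTTCC). The response element core was found in 4 of the 6 genes (*Apobec3*, *Bst2*, *Ifitm2* and *Ifitm3*), against 3.44% of all 32851 promoter windows of this length. The gamma-activated site was found in 3 (*Samhd1*, *Bst2* and *Ifitm3*), against 8.3% of all windows. The κB site was found in 0 of the 6, against 1.63% of all windows, and *Ifitm1* held none of these letters. The stretches that hold the matches are shown because the genes differed in which cytokine they went with. They are given 5′ to 3′ on the strand of the gene, with capitals marking the matched letters, which overlap in *Bst2* and *Ifitm3*. The *Apobec3* stretch lies at chr15:79892178-79892337, *Samhd1* at chr2:157135266-157135346, *Bst2* at chr8:71537527-71537698, *Ifitm2* at chr7:140955988-140956097 and *Ifitm3*, within its first exon, at chr7:141010716-141010742.
Apobec3: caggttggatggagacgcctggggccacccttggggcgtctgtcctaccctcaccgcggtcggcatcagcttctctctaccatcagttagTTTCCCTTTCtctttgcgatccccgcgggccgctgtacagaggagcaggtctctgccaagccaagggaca
Samhd1: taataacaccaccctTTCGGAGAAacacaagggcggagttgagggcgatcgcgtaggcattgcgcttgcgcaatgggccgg
Bst2: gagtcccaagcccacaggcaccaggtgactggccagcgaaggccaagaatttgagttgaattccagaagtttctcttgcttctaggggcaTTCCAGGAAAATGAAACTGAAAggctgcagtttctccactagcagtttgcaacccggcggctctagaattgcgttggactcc
Ifitm2: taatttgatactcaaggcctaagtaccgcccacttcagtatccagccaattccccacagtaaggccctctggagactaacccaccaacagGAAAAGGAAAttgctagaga
Ifitm3: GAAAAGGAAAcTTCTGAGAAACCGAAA
A match of letters is a description of the sequence, and binding at these positions was not measured.

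*Apobec3* was the only gene that reached a mean of 5 CPM in β-like cells and stood at least 2-fold above untreated under each cytokine alone, and it was higher again under both. A CPM is 1 UMI in 1000000 UMIs, here over all cells of a class in a library. The *Apobec3* level was 11.4 CPM in untreated β-like cells (95% exact Poisson interval 9.93 to 13, 226 UMIs in 1170 cells). It was 85.6 under IL-1β (79.8 to 91.6), 50.2 under IFN-γ (46.6 to 54.1) and 173 under both (167 to 180). All 4 levels were separated by more than counting error, in the order untreated, IFN-γ, IL-1β, both. The combination was 2.03 times the IL-1β level (95% interval 1.87 to 2.19) and 3.45 times the IFN-γ level (3.18 to 3.75). Because the share of cells with a UMI depends on depth, each cell was also thinned to 4000 UMIs. After thinning, 3.34% of 1139 untreated β-like cells (exact binomial interval 2.37 to 4.55) held an *Apobec3* UMI, as did 28.2% of 1055 under IL-1β, 19.1% of 1226 under IFN-γ and 48.0% of 1226 under both (45.2 to 50.9). Before thinning the shares were 16.8%, 45.3%, 36.5% and 78.3%. Mesenchymal-like cells held a thinned *Apobec3* UMI in 0 of 10, 0 of 14, 2 of 15 and 0 of 8 cells.

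α-like and δ-like cells started from a higher *Apobec3* level than β-like cells and were close to them, or above, under both cytokines. The α-like level was 31.5 CPM untreated, 81.1 under IL-1β, 98.2 under IFN-γ and 167 under both. The δ-like level was 29.5, 126, 83.8 and 244 CPM in the same order of libraries. The ratio of both cytokines to untreated was 5.30 (3.57 to 8.14) in α-like and 8.26 (5.03 to 14.5) in δ-like cells, against 15.2 (13.3 to 17.5) in β-like cells, whose interval overlaps only that of the δ-like cells. In α-like cells the IL-1β ratio of 2.57 (1.72 to 3.99) and the IFN-γ ratio of 3.12 (2.10 to 4.79) were not told apart, whereas in β-like cells the IL-1β ratio of 7.53 (6.49 to 8.76) exceeded the IFN-γ ratio of 4.42 (3.80 to 5.15).

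*Samhd1* and *Bst2* went with IFN-γ and not with IL-1β in all 3 endocrine classes. *Samhd1* in β-like cells was at 8.35 CPM untreated (7.13 to 9.72), 6.15 under IL-1β (4.68 to 7.93), 64.5 under IFN-γ (60.4 to 68.8) and 54.5 under both (50.8 to 58.3). The IFN-γ and combined libraries were 7.72 (6.54 to 9.17) and 6.52 times (5.52 to 7.75) the untreated level, and the IL-1β library was 0.736 times it (0.538 to 0.997). *Bst2* in β-like cells was at 14.7 CPM untreated (13.1 to 16.5), 12.8 under IL-1β (10.7 to 15.3), 77.3 under IFN-γ (72.8 to 82.0) and 60.1 under both (56.3 to 64.1). The corresponding ratios were 0.873 (0.701 to 1.08) under IL-1β, 5.26 (4.62 to 6.01) under IFN-γ and 4.09 (3.58 to 4.68) under both. The shares of thinned β-like cells told the same order, with *Samhd1* in 3.25%, 3.22%, 22.1% and 18.8% of cells and *Bst2* in 5.44%, 4.17%, 25.9% and 19.5%.

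In α-like cells *Samhd1* and *Bst2* were lower when IL-1β was combined with IFN-γ than under IFN-γ alone. *Samhd1* was at 19.1 CPM untreated, 12.4 under IL-1β, 154 under IFN-γ and 56.3 under both, so that the combined level was 0.366 times that under IFN-γ alone (0.285 to 0.467). *Bst2* was at 46.1, 12.4, 138 and 72.1 CPM, a combined level 0.523 times that under IFN-γ alone (0.415 to 0.653), and under IL-1β alone it was 0.270 times untreated (0.160 to 0.449). The thinned shares of α-like cells gave the same order, at 42.0% under IFN-γ against 23.8% under both for *Samhd1* and 40.9% against 19.4% for *Bst2*. δ-like cells differed from this for *Bst2*, which was at 39.9 CPM untreated, 23.2 under IL-1β, 287 under IFN-γ and 289 under both. Its IFN-γ and combined ratios to untreated were 7.20 (4.72 to 11.5) and 7.23 (4.70 to 11.6). δ-like *Samhd1* was at 27.8, 6.96, 106 and 80.0 CPM, the IL-1β level resting on 6 UMIs.

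*Ifitm2* followed the opposite pattern, with IL-1β and not IFN-γ, and most clearly in α-like and δ-like cells. In α-like cells it was at 144 CPM untreated (120 to 171), 499 under IL-1β (470 to 530), 116 under IFN-γ (102 to 130) and 542 under both (505 to 581). The 2 libraries with IL-1β were thus 3.47 (2.89 to 4.2) and 3.76 times (3.12 to 4.57) the untreated level, while IFN-γ alone was at 0.802 times it (0.648 to 0.998). In δ-like cells it was at 130, 318, 89.9 and 250 CPM, with ratios to untreated of 2.44 (1.88 to 3.19), 0.690 (0.512 to 0.935) and 1.92 (1.47 to 2.54). When cells were thinned to equal depth the δ-like ratios were 3.77, 1.01 and 3.06. In α-like cells of the 4 libraries, ductal markers (mostly *Spp1*) summed to 2634, 9088, 3415 and 4709 CPM. In δ-like cells ductal markers summed to 320, 536, 246 and 304 CPM. Ductal-like *Ifitm2* was at 367, 349, 256 and 682 CPM, and any link with the α-like and δ-like levels was not tested. In β-like cells *Ifitm2* was at 27.3, 41.4, 17.0 and 40.8 CPM, and the IL-1β, IFN-γ and combined ratios of 1.52 (1.33 to 1.73), 0.625 (0.535 to 0.729) and 1.5 (1.33 to 1.68) all stayed under 2-fold either way. The β-like ratios have to be read against the median ratio of the 9202 genes tested there, which was 1.31 under IL-1β, 1.25 under IFN-γ and 1.04 under both (0.39, 0.32 and 0.06 on the log2 scale), beside insulin and other hormone transcripts that took 47.6%, 28.8%, 34.5% and 38.2% of β-like UMIs in the 4 libraries. Divided by that median, *Ifitm2* was at 1.16, 0.502 and 1.44 times untreated, *Apobec3* at 5.74, 3.55 and 14.6, *Bst2* at 0.665, 4.22 and 3.93, and *Samhd1* at 0.561, 6.2 and 6.26.

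**Figure D1:**
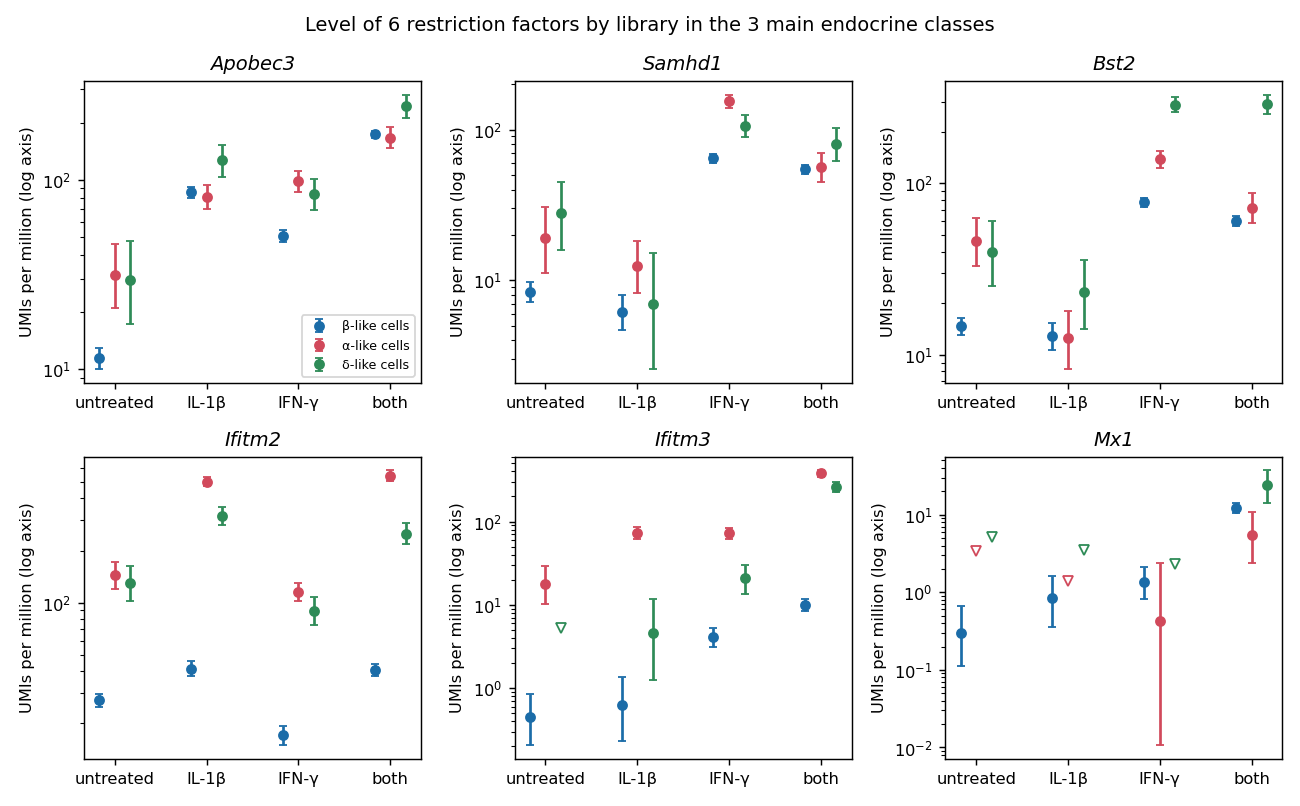
Level of 6 restriction factors (CPM, UMIs per 1000000, log axis) in each of the 4 libraries, for β-like, α-like and δ-like cells. Points are the level over all cells of a class in 1 library, bars are 95% exact Poisson intervals, and open triangles are the limit that a count of 0 allows. *Apobec3* was highest under both cytokines in each class, *Samhd1* and *Bst2* were high in the 2 libraries with IFN-γ, and *Ifitm2* was high in the 2 libraries with IL-1β.

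In endocrine cells the highest *Ifitm3* and *Mx1* levels were those with the combination. *Ifitm3* in α-like cells was at 18.0 CPM untreated (10.3 to 29.2), 73.2 under IL-1β (62.3 to 85.6), 71.9 under IFN-γ (61.5 to 83.6) and 378 under both (347 to 411). The combination was 21.0 times untreated (12.8 to 37.0), 5.16 times IL-1β and 5.25 times IFN-γ. The untreated α-like level rested largely on 1 cell, which held 11 of the 16 UMIs, and was 5.72 CPM without it. In δ-like cells *Ifitm3* had 0 UMIs in the untreated library, 4 under IL-1β (4.64 CPM), 27 under IFN-γ (20.8 CPM) and 207 under both (259 CPM). With a floor of 3 UMIs per library for the untreated level, the δ-like level was at least 3.98-fold higher under IFN-γ and at least 49.7-fold higher under both, and the combination was 55.8 times IL-1β (21.5 to 207, but 19.3 with classes taken from clusters) and 12.5 times IFN-γ (8.33 to 19.4). Bounds from this floor, here and below, leave out the counting error of the cytokine library. The cells with the most UMIs held 9 of the 27 and 26 of the 207, and the levels without them were 13.9 and 232 CPM. The δ-like levels under either cytokine alone were near what RNA from other cells could give, as set out below.

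In β-like cells *Ifitm3* was scarce in every library, with 9, 6, 58 and 154 UMIs, or 0.453, 0.625, 4.12 and 9.98 CPM. A single IFN-γ-treated cell held 28 of the 58 UMIs, and the level was 2.13 CPM without it. The combined level was 22.1 times untreated (11.3 to 49.1) over summed UMIs but 4.70 times when each cell's CPM was averaged, from an untreated level of 9 UMIs, while the share of thinned β-like cells with a UMI was 0.176%, 0.284%, 1.14% and 2.77%. *Ifitm3* reached 46.2% of thinned α-like cells and 31.1% of thinned δ-like cells under both cytokines. The 2.77% of β-like cells is not read as expression. The summed β-like level lay below the level that RNA from other cells could give, as set out below. Before thinning the 154 UMIs lay in 76 of 1256 cells, with at most 11 in 1 cell. Endothelial markers summed to 2.90 CPM in those cells against 3.47 in the others, and macrophage markers to 186 against 146 CPM. The source of these UMIs was not tested. *Mx1* in β-like cells was at 0.302, 0.834, 1.35 and 12.2 CPM, from 6, 8, 19 and 188 UMIs, the last spread over 76 of 1256 cells. The combination was 40.4 times untreated (18.2 to 111), 14.6 times IL-1β (7.27 to 34.4) and 9.03 times IFN-γ (5.62 to 15.3). Without the upper gene limit, which removed 843 untreated cells against 222 of the combined library, the first of these ratios was 25.3. *Mx1* UMIs in δ-like cells came from the combined library alone, at 23.8 CPM (19 UMIs in 9 cells, at least 4.56-fold higher than untreated). In α-like cells *Mx1* was at 0, 0, 0.423 and 5.49 CPM. *Ifitm1* had 0, 1, 3 and 0 UMIs in β-like cells, 6 and 2 UMIs in the α-like cells of the IL-1β and combined libraries, and 26 UMIs in 7 δ-like cells of the combined library (32.5 CPM, 22.8 without the cell that held 8 of them).

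**Figure D2:**
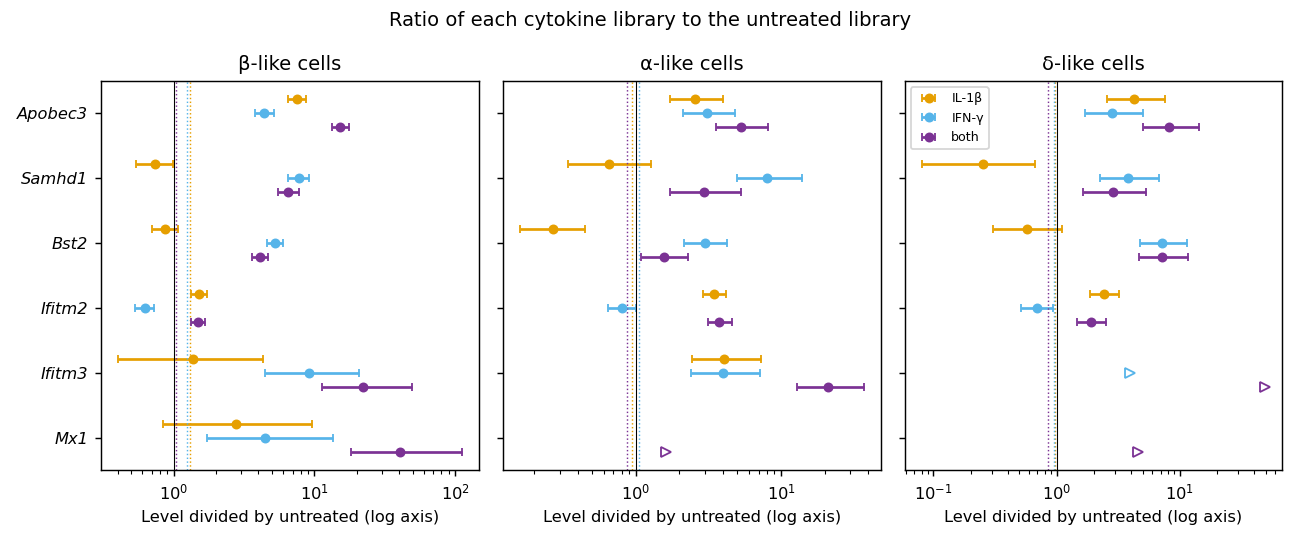
Level of 6 restriction factors in each cytokine library divided by that in the untreated library (log axis), for β-like, α-like and δ-like cells. Points carry 95% exact conditional intervals, open triangles are lower bounds at a floor of 3 UMIs, the solid line marks equal levels and dotted lines mark the median ratio of all genes tested. The combined *Ifitm3* ratio was 21.0 in α-like cells and at least 49.7 in δ-like cells, and *Ifitm2* lay below 1 under IFN-γ alone in each class (1.01 in δ-like cells thinned to equal depth).

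Counted by a rule of size, the genes that stood out differed between cytokines. In β-like cells 4 of the 7 genes reached a mean level of 5 CPM over the libraries. Under IL-1β 1 of these 4 (*Apobec3*) was at least 2-fold above untreated, against 16.7% of all genes tested. Under IFN-γ it was 3 of 4 (*Apobec3*, *Bst2* and *Samhd1*), against 4.62% of genes, and under both the same 3 of 4, against 10.6%. The shares over all genes depended on the scaling in 2 of these comparisons, at 6.91% to 8.48% under IL-1β and 2.64% to 2.67% under IFN-γ with hormone genes left out of the total, TMM or DESeq2 factors, and the IFN-γ share was 8.36% with no filter on level. None of the 4 was at least 2-fold lower in any of these libraries, against 3.74%, 0.12% and 7.84% of genes. Against IL-1β alone the combination was at least 2-fold higher for 3 of 4 (1.99% of genes, with 5.42% at least 2-fold lower), and against IFN-γ alone for *Apobec3* and *Ifitm2* (4.78% of genes). In α-like cells 5 genes passed the level. *Apobec3*, *Ifitm2* and *Ifitm3* were at least 2-fold higher under IL-1β (8.4% of genes), *Apobec3*, *Bst2*, *Ifitm3* and *Samhd1* under IFN-γ (6.38%), and *Apobec3*, *Ifitm2*, *Ifitm3* and *Samhd1* under both (9.63%), while *Bst2* was at least 2-fold lower under IL-1β (10.6%). Against IL-1β alone the combination was at least 2-fold higher for *Apobec3*, *Bst2*, *Ifitm3* and *Samhd1* (4.46% of genes, with 7.31% lower), and against IFN-γ alone for *Ifitm2* and *Ifitm3* (6.2%), while *Samhd1* was at least 2-fold lower (16.3%). The share of all genes under IFN-γ was 12.2% in thinned α-like and 10.1% in thinned δ-like cells. In δ-like cells all 7 genes passed the level, but *Ifitm1* and *Mx1* did so only through the combined library, where they then had to be higher, and they are left out of the counts. Of the other 5 genes, 2 were at least 2-fold higher under IL-1β (11.6% of genes), 4 under IFN-γ (5.87%) and 4 under both (12.3%, with 22.0% of genes at least 2-fold lower). One of the 4 under IFN-γ is *Ifitm3*, whose 20.8 CPM lay near the 19.6 CPM that RNA from other cells could give. *Samhd1* was at least 2-fold lower under IL-1β (13.4%), a call that rests on 6 UMIs and ended when cells were thinned to equal depth (ratio 0.512). The combination was at least 2-fold above IL-1β alone for 3 of the 5 (7.44% of genes) and above IFN-γ alone for 3 (10.0%). The comparisons with untreated share that library and are not independent of each other. Set beside the promoter stretches above, *Apobec3* and *Ifitm2*, which were at least 2-fold higher under IL-1β in α-like and δ-like cells, held the response element core and no gamma-activated site, *Samhd1* held the gamma-activated site alone, and *Bst2* and *Ifitm3* held letters of both kinds. α-like *Ifitm3*, whose untreated level is uncertain, was also at least 2-fold higher under IL-1β, and the window at the other annotated *Apobec3* start held none of these letters. Any link between the letters and the cytokines was not tested.

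**Figure D3:**
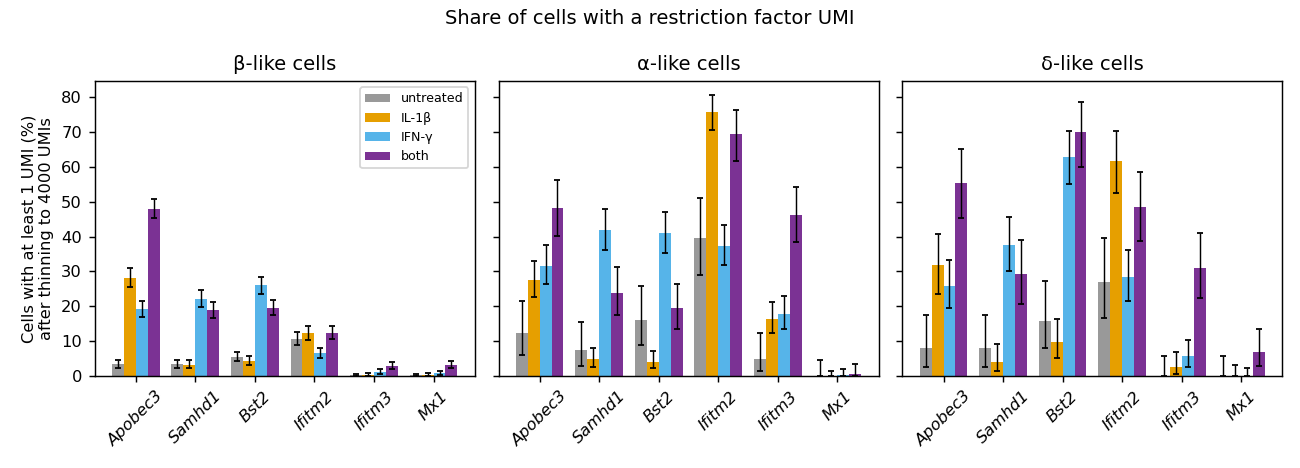
Share of cells (%) with at least 1 UMI of each of 6 restriction factors after every cell was thinned to 4000 UMIs, by library, in β-like, α-like and δ-like cells. Bars start at 0 and the error bars are 95% exact binomial intervals. *Ifitm3* was found in 46.2% of α-like and 31.1% of δ-like cells under both cytokines. The 2.77% of β-like cells is not read as expression, since the summed β-like level lay below what RNA from other cells could give. The source of these UMIs was not tested.

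RNA released by other cells enters droplets, so the level that such RNA could give was worked out from the markers of the endothelial-like, macrophage-like and mesenchymal-like classes. The ductal-like class was not among these sources. For each library, the summed marker level of a source class within an endocrine class, as a share of its level in the source class, was multiplied by the level of the restriction factor in the source class, and the products were summed over the 3 source classes. For *Ifitm3* in β-like cells this carried level was 1.43, 1.55, 7.87 and 11.95 CPM in the 4 libraries, against measured levels of 0.453, 0.625, 4.12 and 9.98 CPM. The measured β-like *Ifitm3* level was thus below the carried level in each library, and no *Ifitm3* expression or difference is read from β-like cells. In the combined library that order rested on 1 marker. There 6.02 CPM was carried through macrophage markers, of which *C1qa* alone made up 137 of 148 CPM. The endothelial-like and mesenchymal-like parts were 5.24 and 0.696 CPM. In δ-like cells the carried *Ifitm3* level was 5.38 CPM under IL-1β, 19.6 under IFN-γ and 32.2 under both, so that of the measured 4.64, 20.8 and 259 CPM only the combined value stood well above it. In α-like cells it was 6.43, 4.06, 14.2 and 21.7 CPM, against 18.0, 73.2, 71.9 and 378 measured. The untreated α-like level without the cell that held most of its UMIs, 5.72 CPM, was thus under the carried level, so the ratios to untreated have an uncertain base. Ductal markers in α-like cells summed to 2634, 9088, 3415 and 4709 CPM, of which *Spp1* made up 2459, 8919, 3254 and 4503.5 CPM. Ductal-like *Ifitm3* was at 258, 98.1, 1296 and 1651.5 CPM. The part of the α-like *Ifitm3* level that RNA from ductal-like cells could give was not tested. For δ-like *Ifitm1* under both cytokines the carried level was 3.22 CPM against 32.5 measured. The carried level was at most 9.34 CPM for β-like *Bst2* and 4.75 CPM for β-like *Samhd1*, both in the combined library, and at most 0.900 CPM for *Apobec3* in β-like, α-like and δ-like cells. Summed macrophage markers in β-like cells were at 73.8, 51.4, 48.2 and 148 CPM in the 4 libraries, most of it *C1qa* at 69, 36.3, 40.3 and 137 CPM, with 10, 8, 10 and 10 of 11 markers above 0. In δ-like cells of the combined library 0 of 8 mesenchymal markers had a UMI, and endothelial markers summed to 18.8 CPM (2 of 10 above 0).

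**Figure D4:**
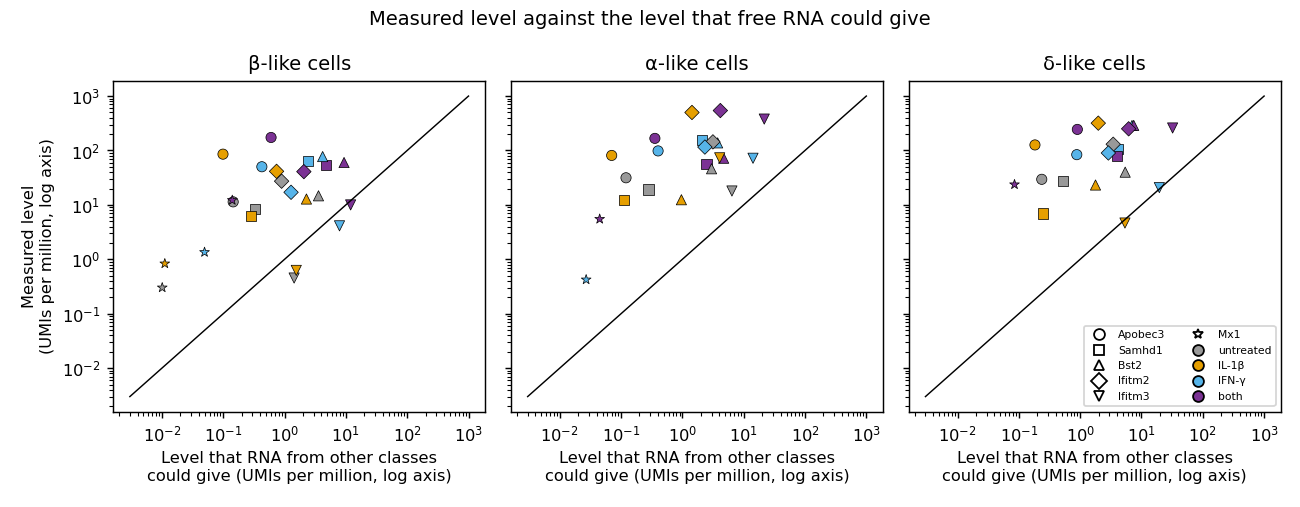
Measured level of 6 restriction factors against the level that RNA from the endothelial-like, macrophage-like and mesenchymal-like classes could give together (both in CPM, log axes), for β-like, α-like and δ-like cells. Shapes are genes, colours are libraries, and the line marks equal levels. β-like *Ifitm3* sat below the line, at 0.453 to 9.98 measured against 1.43 to 11.95 carried, and *Apobec3* sat far above it in every class and library. The carried value of 11.95 rested largely on 1 macrophage marker, *C1qa*, and the ductal-like class was not among the sources.

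*Ifitm3* levels in endothelial-like, mesenchymal-like and macrophage-like cells were above those of α-like, β-like and δ-like cells in each library. Endothelial-like *Ifitm3* was at 1510 CPM untreated, 2582 under IL-1β, 6744 under IFN-γ and 11080 under both, the combined level being 7.34 times untreated (6.51 to 8.29). Mesenchymal-like cells were at 2628, 3052, 4718 and 7576 CPM and macrophage-like cells at 200.5, 239, 643 and 1289 CPM, the macrophage-like ratio being 6.43 (4.87 to 8.60) under both cytokines. *Ifitm3* was thus already abundant in untreated endothelial-like and mesenchymal-like cells. *Ifitm1* levels differed between the non-endocrine classes. In endothelial-like cells it had 0 UMIs untreated and was at 280 CPM under IL-1β, 328 under IFN-γ and 1247 under both, at least 19.0-, 22.3- and 84.5-fold higher, and in mesenchymal-like cells at 206, 147, 718 and 1233 CPM. Few cells held these UMIs. In endothelial-like cells they came from 4, 9 and 11 cells of the cytokine libraries, a single cell held 13 of 38, 39 of 94 and 63 of 255, and the levels without it were 193, 201 and 996 CPM. A single untreated mesenchymal-like cell held 15 of 20 UMIs, and the level without it was 55.7 CPM. Endothelial-like cells with an *Ifitm1* UMI had summed mesenchymal markers at 2532, 2063 and 894 CPM under IL-1β, IFN-γ and both, against 17.6, 385 and 26.3 CPM in those without, and the part of this in the *Ifitm1* level was not tested. Macrophage-like cells, which had 0 *Ifitm1* UMIs in all 4 libraries, had the highest *Bst2* and *Samhd1* levels of the 8 classes in every library.

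Macrophage-like *Bst2* was at 1153 CPM untreated, 942 under IL-1β, 1765 under IFN-γ and 1897 under both, a combined ratio of 1.65 (1.43 to 1.89). That ratio was below the 5.03 (3.46 to 7.5) of endothelial-like cells, where *Bst2* was at 167, 243, 898 and 841 CPM. *Samhd1* in macrophage-like cells was at 100.2, 115, 1055 and 958 CPM, so that IFN-γ alone was 10.5 times untreated (7.24 to 15.8), and endothelial-like cells gave a similar 10.7 (5.67 to 22.8). *Apobec3* in endothelial-like cells was highest in the libraries with IFN-γ, at 29.5, 81.1, 227 and 235 CPM from 6, 11, 65 and 48 UMIs. Its IL-1β level (40.5 to 145) was also above untreated (10.8 to 64.2), with intervals that overlapped. Adding IL-1β to IFN-γ gave a ratio of 1.03 (0.696 to 1.52). In macrophage-like cells *Apobec3* was at 43.4, 33.5, 141 and 105 CPM from 13, 7, 47 and 28 UMIs, the IL-1β ratio being 0.770 (0.260 to 2.08). Ductal-like cells had *Apobec3* at 129, 109, 217 and 251 CPM. The β-like IL-1β ratio of 7.53 for *Apobec3* therefore had no counterpart in macrophage-like cells, whose interval ended at 2.08, although the difference was not tested. *Mx1* had 1, 1, 9 and 8 UMIs in macrophage-like cells, with an IFN-γ ratio of 8.10 (1.12 to 355), and 0 UMIs in endothelial-like and mesenchymal-like cells of every library. The endothelial-like, macrophage-like, mesenchymal-like and ductal-like classes held 6 to 44 cells in a library, and the intervals do not cover differences between cells.

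**Figure D5:**
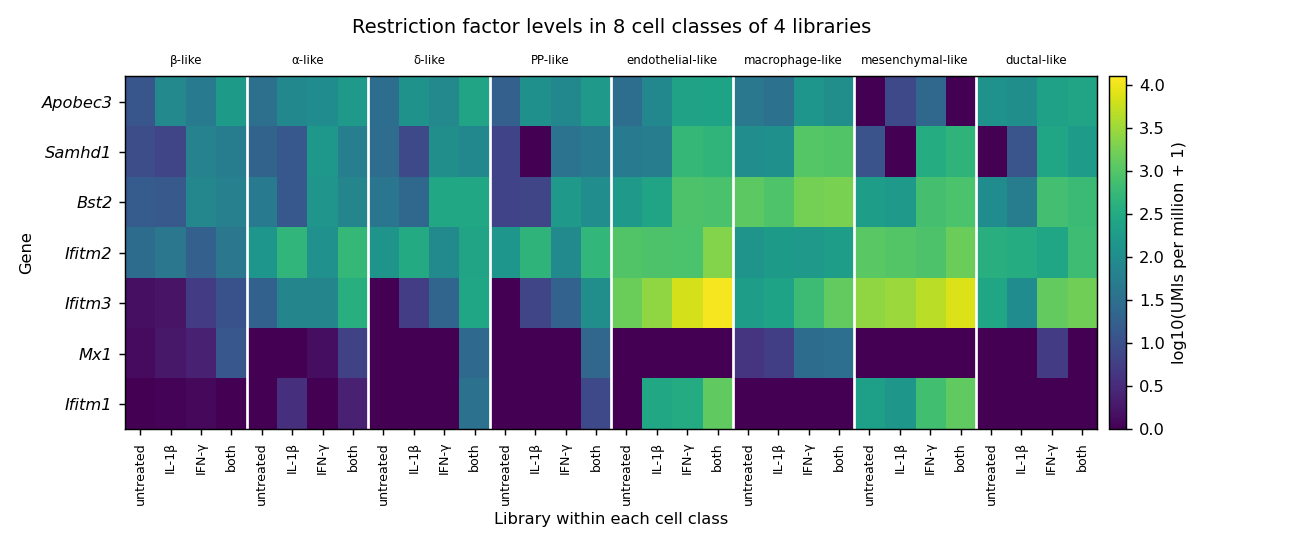
Level of the 7 restriction factors in 8 cell classes of the 4 libraries, as log10(CPM + 1). Columns are libraries within each class and rows are genes. *Ifitm3* was highest in the endothelial-like and mesenchymal-like classes, *Bst2* and *Samhd1* in macrophage-like cells, and *Ifitm1* had 0 UMIs in macrophage-like and ductal-like cells.

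The order of the classes was compared with the library as the unit, since each library holds all classes. An exact two-sided sign permutation test was made of the log2 difference from β-like cells. The 4 libraries are different treatments of islets from the same pool and not replicates, so the SD is the spread between treatments. With 4 libraries that test cannot give a p below 0.125, and 35 comparisons were made, so no difference passed a threshold of 0.05 and the sizes are given as such. α-like cells were above β-like cells in 4 of 4 libraries for *Ifitm2* (mean log2 difference 3.08 ± 0.65, SD, n = 4) and *Samhd1* (0.83 ± 0.54), with an exact p of 0.125 each (Benjamini-Hochberg adjusted 0.182). δ-like cells were above β-like cells in 4 of 4 for *Ifitm2* (2.51 ± 0.31), *Bst2* (1.58 ± 0.62), *Apobec3* (0.77 ± 0.37) and *Samhd1* (0.76 ± 0.62). *Samhd1* differences were as small as 0.047 in α-like cells under both cytokines and 0.155 in δ-like cells under IL-1β, the latter from 6 UMIs. Hormone transcripts took 47.6%, 28.8%, 34.5% and 38.2% of β-like UMIs, which lowers the CPM of other genes. They took 23.5%, 19.2%, 18.3% and 19.6% of α-like and 21.2%, 17.5%, 21.1% and 16.2% of δ-like UMIs. The order with hormone genes left out of the total was not worked out. Macrophage-like cells were above β-like cells in 4 of 4 for *Bst2* (5.44 ± 0.84), *Samhd1* (3.89 ± 0.31), *Ifitm2* (2.40 ± 0.51) and *Mx1* (2.05 ± 1.04, from 1, 1, 9 and 8 macrophage-like UMIs). For *Mx1*, α-like, endothelial-like and mesenchymal-like cells were below β-like cells in 4 of 4 libraries. Those signs rest largely on counts of 0, with 0, 0, 1 and 8 α-like UMIs and none in the endothelial-like and mesenchymal-like cells. Endothelial-like cells were above β-like cells in 4 of 4 for *Ifitm2* (5.19 ± 0.59), *Bst2* (3.72 ± 0.32) and *Samhd1* (2.87 ± 0.31). *Ifitm3* differences from β-like cells are not given, since the β-like level lay below the carried level. α-like *Bst2* was above the β-like level in 3 of 4 libraries and close to it under IL-1β, at 12.4 against 12.8 CPM. *Apobec3* was above the β-like level in 2 of 4 libraries in α-like and macrophage-like cells and in 3 of 4 in endothelial-like cells. Mesenchymal-like cells were above β-like cells in 4 of 4 for *Ifitm1* (8.56 ± 1.45), *Ifitm2* (5.18 ± 0.45) and *Bst2* (3.58 ± 0.22). They held 0, 1, 4 and 0 *Apobec3* UMIs, whose upper limits of 38.0, 38.9, 59.3 and 44.2 CPM lay below the β-like level under IL-1β and under both cytokines and not in the other libraries.

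Among β-like cells of the same library, those with a high share of the heat shock gene *Hspa1a* (at least 10 UMIs per 10000) had a lower share with an *Apobec3* UMI after thinning in the 3 cytokine libraries. *Apobec3* was found in 7.59% of 79 such cells (2.84 to 15.8) against 29.8% of the 976 others (27.0 to 32.8) under IL-1β, in 8.70% of 69 (3.26 to 18.0) against 19.7% of 1157 (17.5 to 22.1) under IFN-γ, and in 19.4% of 72 (11.1 to 30.5) against 49.8% of 1154 (46.9 to 52.8) under both. The *Apobec3* intervals overlapped under IFN-γ and in neither of the other cytokine libraries. *Samhd1* was found in 10.1% (4.18 to 19.8) against 22.8% (20.4 to 25.3) and *Bst2* in 14.5% (7.17 to 25.0) against 26.6% (24.1 to 29.3) of the same IFN-γ-treated cells. The *Bst2* difference did not run one way, since under IL-1β the share was 6.33% (2.09 to 14.2) in the cells with much *Hspa1a* and 4% (2.86 to 5.42) in the others, with overlapping intervals. Under both cytokines the *Samhd1* and *Bst2* intervals overlapped as well. In the untreated library, where 16 cells had much *Hspa1a*, the shares in those cells were higher than in the others for *Samhd1* (12.5%, 1.55 to 38.3, against 3.12%, 2.18 to 4.31) and *Bst2* (18.8%, 4.05 to 45.6, against 5.25%, 4.02 to 6.72), with intervals that overlapped, and *Apobec3* was found in 0 of the 16. β-like cells were also split by *Nos2*, the inducible nitric oxide synthase. In the combined library 23.0% of the 752 β-like cells that held a *Nos2* UMI also held a *Samhd1* UMI (20 to 26.2), against 12.2% of the 474 without (9.42 to 15.5), and the shares with an *Apobec3* UMI were 50.5% (46.9 to 54.2) and 44.1% (39.6 to 48.7). Under IL-1β alone *Apobec3* was found in 29.1% of 251 cells with and 27.9% of 804 cells without *Nos2*. *Samhd1* ran the other way there, at 1.99% (0.65 to 4.59) with and 3.61% (2.43 to 5.14) without *Nos2*, with intervals that overlapped. These cells come from 1 library each, and no test was made between them.

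A wider list of 28 cell-intrinsic restriction factors, of which 27 were matched, was counted by the same rule. Genes that passed 5 CPM only through their highest library (such as *Slfn2* and *Slfn9* in β-like cells) were left out, a choice made after seeing the data, which left 12 in each class. In β-like cells 7 of the 12 were at least 2-fold higher under IL-1β (16.7% of all genes), 7 under IFN-γ (4.62%) and 9 under both (10.6%), and 0 were lower. The IL-1β count depended on the scaling and was 3 with hormone genes left out of the total, TMM or DESeq2 factors. The median ratios to untreated with 1 CPM added were 1.96, 2.54 and 2.68, against 1.29, 1.23 and 1.04 over all genes tested. *Rsad2*, which encodes the radical SAM enzyme viperin, was at 3.77, 12.1, 47.2 and 159 CPM in β-like cells, an order like that of *Mx1*. *Isg20*, an exonuclease of viral RNA, was at 137, 480, 240 and 539 CPM, and *Zc3hav1*, the zinc-finger antiviral protein that binds CpG-rich RNA, at 27.1, 76.6, 87.5 and 72.2 CPM. In α-like cells 2, 7 and 7 of 12 were at least 2-fold higher (8.4%, 6.38% and 9.63% of all genes, medians 1.19, 2.17 and 2.30 against 0.948, 1.06 and 0.877) and in δ-like cells 3, 6 and 9 of 12 (11.6%, 5.87% and 12.3% of all genes, medians 1.53, 1.93 and 3.32 against 0.980, 0.967 and 0.862). At least 2-fold lower were 1 of 12 in α-like cells under IL-1β (*Rsad2*, against 10.6% of all genes) and 1 of 12 in δ-like cells under both (*Serinc5*, from 6 UMIs untreated and 3 under both, against 22.0%). These lists were drawn up with results of these data known and are a description only.

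A list of 14 genes of cytokine signalling was counted as well, made up of interferons, their receptors, kinases and transcription factors and the IL-1 receptor *Il1r1*, and 12 of them passed 5 CPM in each class. In β-like cells 9, 6 and 8 of the 12 were at least 2-fold higher under IL-1β, IFN-γ and both, against 16.7%, 4.62% and 10.6% of all genes (medians 2.03, 1.79 and 3.28, against 1.29, 1.23 and 1.04). In α-like cells it was 2, 5 and 7 of 12, against 8.4%, 6.38% and 9.63% (medians 1.09, 1.54 and 3.26, against 0.948, 1.06 and 0.877). In δ-like cells it was 5, 4 and 7 of 12, against 11.6%, 5.87% and 12.3% (medians 1.86, 1.53 and 3.26, against 0.980, 0.967 and 0.862). At least 2-fold lower under both were *Il1r1* in β-like, *Ifngr1* in α-like and *Ifngr1* and *Il1r1* in δ-like cells (7.84%, 16.0% and 22.0% of all genes), and *Ifngr2* was so in δ-like cells under IFN-γ (6.43%). These counts too depended on the scaling. With hormone genes left out of the total, TMM or DESeq2 factors, the β-like count was 3, 4 and 4 under IL-1β and 4 each time under IFN-γ. With TMM or DESeq2 factors the δ-like count under IFN-γ was 6 and *Ifngr2* was no longer called lower there. *Irf1*, a transcription factor of the interferon response, was at 19.8, 41.1, 206 and 328 CPM in β-like cells. *Ifngr2*, the signalling chain of the IFN-γ receptor, was at 5.33, 57.3, 5.11 and 50.8 CPM in β-like, 5.62, 74.2, 8.04 and 84.4 in α-like and 19.1, 69.6, 9.22 and 121 in δ-like cells, so it was high in the 2 libraries with IL-1β in each class. *Il1r1* was at 240, 254, 224 and 93.5 CPM in β-like cells. *Ifnb1* and *Ifng*, which encode interferons, had 0 UMIs in β-like, α-like and δ-like cells of every library.

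Over the 28 profiles of a class with at least 20 cells in a library, the genes most like each restriction factor were found by Pearson's r of log2(CPM + 1) among 6232 genes. The profiles included the 22 acinar-like cells of the IFN-γ library, a class not described otherwise. The points share libraries and depth, and r is a description. *Apobec3* was most like *Samd9l* (0.902), *Gbp9* (0.868) and *Znfx1* (0.845), *Samhd1* most like *Noc4l* (0.902), *Psmb9* (0.875) and *Oasl2* (0.834), and *Bst2* most like *Irf8* (0.933), *Shisa5* (0.909) and *Irf7* (0.906). *Ifitm2* was most like *Id1* (0.907), *Rhoc* (0.892) and *Abcf2* (0.854), *Ifitm3* most like *Tspan4* (0.899), *Rer1* (0.898) and *Myl12a* (0.895), and *Ifitm1* most like *Rarres2* (0.880), *Il6* (0.861) and *Gja4* (0.853). *Mx1*, with few UMIs, was most like *Acod1* (0.866), *Grina* (0.771) and *Cd74* (0.739). The genes compared had a mean level of at least 20 CPM over the profiles, which *Mx1* did not reach, and none of the other 6 restriction factors was among the 3 genes most like another of them.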

How the data were processed

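The deposited files held raw UMI counts per gene and barcode, made by the authors with Cell Ranger (matrix header software 3.0.0; build mm10 in the submitters' processing notes). Whether counting used strand is not stated in these sources. The genes and all lists were chosen with earlier results of these data known. Barcodes were classed by hormone share (β 5%, α 2%, δ 0.5%, PP 7.5% of UMIs) or by number of markers. Cells of several classes (352) or of none (286) were left out. Together they made up 4.73% of the untreated, 12.6% of the IL-1β, 8.01% of the IFN-γ and 7.79% of the combined cells. The class names were rebuilt here and can differ from those of the study. Named genes were the 8 members, their pathway lists and the 3 genes most like each member. *Hspa1a*, *Nos2*, the macrophage marker *C1qa* and the ductal marker *Spp1* came from other lists, and *Gfap* and *Foxd3* were named after their values were seen. Counts were summed per class and library. Intervals were 95% exact (Poisson, conditional binomial or binomial). Thinning drew 4000 UMIs per cell and left out shallower cells. Scrublet called 11, 22, 21 and 21 cells as doublets (untreated, IL-1β, IFN-γ, both), which were left out only in an alternative. Alternatives changed the scaling, filters, class rule, doublets and fold. Python 3.11.15, scanpy 1.11.5, scipy 1.17.1, edgeR 4.0.16 (TMM factors) and DESeq2 1.42.0 (size factors) were used. No count model was fitted, since each condition had 1 library. The counting of ratios was tested on simulated data that held counting error only, with no variation between cells or libraries. Not every gene of the lists is reported here by name.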

Additional observations from a re-analysis of the deposited data

Results flagged for a closer look

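The ratio of *Ifitm2* under both cytokines to that under IL-1β alone lay on different sides of 1 in different cell classes, with intervals that left out 1. It was 2.45 (2.0 to 3.02) in endothelial-like cells and 1.47 (1.14 to 1.88) in mesenchymal-like cells, but 0.787 (0.653 to 0.948) in δ-like cells. The difference between the classes was not tested, since each condition had 1 library. Divided by the median ratio of all genes in the same comparison (0.819, 0.9997 and 0.888), the values were 2.99 (2.44 to 3.69), 1.47 (1.14 to 1.88) and 0.886 (0.735 to 1.07), so on that scale the δ-like interval included 1. β-like and α-like cells lay between, at 0.987 and 1.08 before that division. Mesenchymal markers in endothelial-like cells were at 4.64% of their mesenchymal-like level under IL-1β and 16.2% under both. Endothelial markers in endothelial-like cells were at 13359 and 7266 CPM, and the part of these shifts in the *Ifitm2* ratio was not tested.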

How the results depend on the processing

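No paired analysis was possible because each condition had 1 library. Across 9 alternatives in scaling, filtering, depth, class rule and doublets, 680 of 693 recomputed ratios of a gene stayed on the same side of 1 and 630 stayed within the interval first given. With a mean level of at least 1 CPM in place of 5, or with no filter on level, the number of genes at least 2-fold above untreated in β-like cells was 2 under IL-1β, 5 under IFN-γ and 5 under both, since *Ifitm3* and *Mx1* then entered the count (β-like *Ifitm3* lay below the level that RNA from other cells could give, and *Mx1* reached a mean of 1 CPM only through the combined library), and with a 1.5-fold rule it was 2 under IL-1β. The other 101 of 108 recomputed counts were within 1.5 times the first. The scaling mattered in β-like cells, where the ratio of *Samhd1* under both cytokines to IFN-γ alone was 0.844 as reported and 1.06 with TMM or DESeq2 factors, and that of *Ifitm2* under both to IL-1β alone was 0.987 and 1.28 or 1.25. Averaging each cell's CPM gave β-like *Ifitm3* ratios of 0.360, 3.09 and 4.70 under IL-1β, IFN-γ and both, and leaving out the upper gene limit gave β-like *Mx1* ratios of 1.73, 2.94 and 25.3. Thinned δ-like cells gave *Samhd1* ratios of 0.512, 6.30 and 4.40, the first no longer a 2-fold difference. Thinned δ-like *Ifitm2* ratios were 3.77, 1.01 and 3.06. With classes taken from clusters, *Ifitm3* under both cytokines was 19.3 times IL-1β in δ-like cells and 5.61 times IFN-γ in β-like cells, whose IFN-γ ratio to untreated was 4.59. The cause of these shifts was not tested. *Ifitm1* and *Mx1* rested on few UMIs in the endocrine classes, and a count of 0 in a class of few cells does not show that the transcript was missing.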

Other observations

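Among PP-like cells, of which the untreated library held 25, IL-1β 22, IFN-γ 50 and the combination 43, *Ifitm2* levels in that order of libraries were 139, 460, 90.2 and 523 CPM. Their *Apobec3* levels were 17.4, 112, 79.9 and 158 CPM, the first resting on 6 UMIs. Their *Bst2* levels were 5.80, 6.22, 156 and 103 CPM, the first pair resting on 2 UMIs and 1 UMI. PP-like *Ifitm3* was at 0, 6.22, 18.4 and 105 CPM, from 0, 1, 9 and 44 UMIs, and no carried level is given for this class. Ductal markers in PP-like cells summed to 1737, 4461, 1673 and 2521 CPM, and any link with PP-like *Ifitm2* was not tested. Barcodes that the filters on genes and mitochondrial transcripts removed held *Apobec3* as well, at 19.7, 85.2, 72.3 and 218 CPM in the 1965, 893, 1572 and 670 removed from the same libraries.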
